A study of Mus musculus with 24 samples.

Results

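The d3 parental line and the d6 parental line, a pair of control lines of F1 hybrid mouse embryonic stem cells, were compared gene by gene in their RNA-seq counts. The comparison takes 4 of the 24 libraries of the series, 2 of d3 and 2 of d6, chosen by their column names. Both lines belong to the same female F121/9 hybrid (CAST/EiJ x S129/Sv), so that one chromosome of each pair comes from a 129 strain and the other from CAST/EiJ. Both carry the genotype label control, and each is the starting line of a recombination (d3 or d6) whose recombined clones were also sequenced. All of the cells grew without serum on gelatin with LIF, the MEK inhibitor PD0325901 and the GSK-3β inhibitor CHIR99021, and the design text calls the replicates biological duplicates. The labels do not say how the parental lines were derived from the hybrid, how many founder cells or passages separate them, or what the names d3 and d6 stand for. Line, culture history and handling of a line therefore cannot be told apart. The recombined clones 12 and 21 of d3 (4 libraries) and clone 16 of d6 (2 libraries) allow the same comparison of lines in libraries that the parental comparison does not use, although a clone shares the history of its line.

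Embryonic stem cells kept with LIF and these inhibitors hold the naive state of the early epiblast, in which a network around Pou5f1, Sox2, Nanog, Esrrb and Tfcp2l1 is active and ERK signalling is low. Their DNA carries little methylation, and a set of germ cell genes that promoter methylation otherwise keeps silent can be detected at low levels. In an F1 hybrid, sequence variants assign a read to the maternal or paternal genome, so a change on one chromosome copy can be told from a change on both.

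The parental libraries held 12263924 and 10383315 counts in d3 and 9892397 and 6345947 in d6. Outside the mitochondrial genome, 48.7% to 49.1% of the counts were assigned to 129S1 in all 4. The stem cell genes Pou5f1, Sox2, Esrrb, Zfp42, Klf4 and Tfcp2l1 were at 174 to 2622 CPM (counts scaled to a common library size after TMM adjustment) in each library. Markers of other cells that a stem cell culture can hold were also read. The summed level of 19 primitive endoderm genes was 715 to 1240 CPM, that of 15 trophectoderm genes 260 to 276 CPM, that of 15 neural genes 217 and 236 CPM in d3 against 154 and 123 CPM in d6, and that of 15 fibroblast genes 2405 and 1048 CPM in d3 against 2391 and 3017 CPM in d6. Between 2 and 8 members of these lists were at 0 in a library. Much of the gap in the neural sum lay in a single member, Nefm. It had 110 and 79.6 CPM in the d3 libraries and 23.4 and 8.19 CPM in the d6 libraries.

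One library stood apart. Replicate 2 of d3 differed from replicate 1 of d3 with a chi-square over genes, divided by its degrees of freedom, of 68.8, more than the 25.4 between replicate 1 of d3 and replicate 1 of d6, and the replicates of d6 differed by 19.2. The difference followed gene length. In 171 protein-coding genes with under 1 kb of exon the median of d3 replicate 2 minus replicate 1 was 0.48 on the log2 scale, in 846 genes of 1 to 2 kb it was 0.51, and in 4330 genes over 5 kb it was -0.23. The replicates of d6 gave -0.053, -0.071 and 0.0049. Mitochondrial genes held 6.11% and 3.16% of the d3 counts and 8.61% and 7.96% of the d6 counts. The named genes were therefore also tested without that library, and with each library's trend on exon length removed, an alternative chosen after the data were seen. The value with the trend removed is given where the call was lost. The part of this trend in any single result was not tested.

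**Figure D1:**
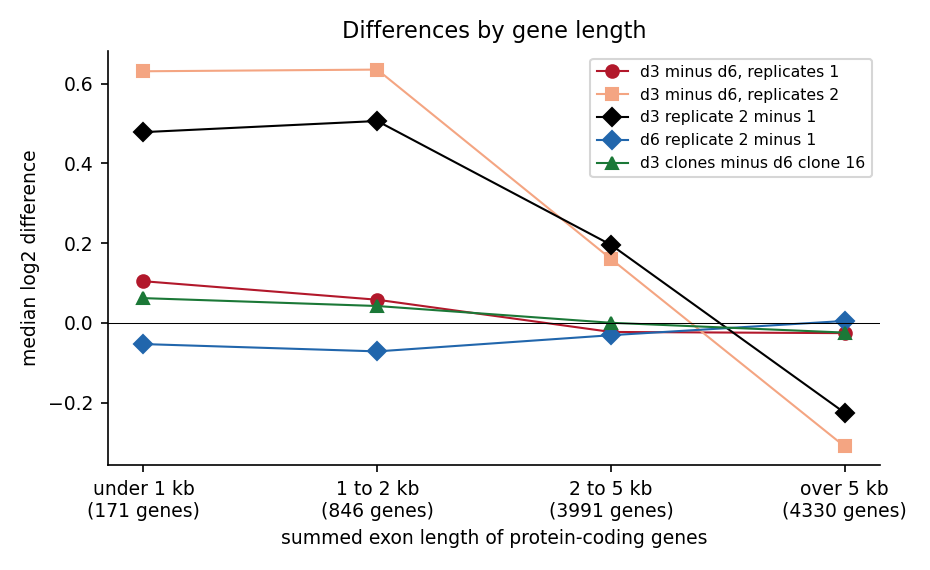
Median log2 difference of protein-coding genes (vertical axis) in 4 classes of summed exon length (horizontal axis, number of genes in brackets). Circles and squares are d3 minus d6 within replicates 1 and 2, black diamonds are d3 replicate 2 minus replicate 1, blue diamonds the same for d6, and triangles are the d3 clones minus d6 clone 16. The lines through d3 replicate 2 fall from above 0.4 in short genes to below -0.2 in genes over 5 kb, and the other lines stay within 0.10 of 0.

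Of 16253 genes tested, 295 (1.82%) differed between the lines at an adjusted p under 0.05 in edgeR's quasi-likelihood test. That fit had no term for the replicate number. Adding such a term gave more calls, as set out in the last paragraph. In d3, 154 were higher (0.948%) and 141 were lower (0.868%). In these bulk libraries, fewer cells that express a gene and less RNA of it per cell cannot be told apart. Of the 295, 233 differed by at least 1 on the log2 scale and 101 by at least 2, and 253 were protein-coding. In all 295 the d3 libraries did not overlap the d6 libraries in CPM, which held for 42% of all genes tested. The called genes were also set against the other parental lines. In 170 of the 295 genes d3 alone had both libraries above or below all 8 other parental libraries, in 45 d6 alone did, in 26 both lines did, and in 54 neither did. Over all genes tested, alone or together with the other line, d3 stood outside in 13% and d6 in 6.26%.

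The number of calls rested on single libraries. It was 62 without d3 replicate 2, 56 without d6 replicate 1 and 34 without d6 replicate 2, and 1561 without d3 replicate 1, with the remaining library of the line assumed to vary like the other groups. With the length trend removed, 192 genes were called, 100 higher and 92 lower, of which 175 were among the 295, and all 295 kept their direction. Of 41 named genes, 24 lost their call without d3 replicate 2, 25 without d6 replicate 1, 31 without d6 replicate 2 and 7 without d3 replicate 1. Scml2, Mid1, Map2k6, Smad3, Pou2f3, Gm8617 and AI662270 passed in all 4. By length, 27 called genes of 1 to 2 kb were higher in d3 and 2 lower, and 10 over 5 kb were higher and 71 lower.

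The recombined clones gave the same direction for nearly all of these genes. Of the 295, 291 (98.6%) had the same sign in d3 clones 12 and 21 against d6 clone 16, as did 72.6% of all genes tested. In the clones 304 genes were called (1.87%), 138 higher (0.849%) and 166 lower (1.02%) in d3. The lists shared 172 genes in the same direction, 58.3% of the parental calls and 56.6% of the clone calls, and no gene was called in opposite directions. Signed by the parental direction, the median of the 295 differences was 1.47 between the parental lines and 1.15 in the clones. These genes were selected on the parental difference, and such a selection by itself tends to make the parental median the larger. No gene was called for the difference between the parental and the clone comparison itself in edgeR, with 331 of 16253 genes at an unadjusted p under 0.05 and 2 called by DESeq2, and without d3 parental replicate 1 this count was 129. The 4 called genes of opposite sign, Atp5e, Tmc8, Gm23865 and Gm45454, were named after their values were seen and had clone differences of -0.020, 0.16, -0.053 and -0.040.

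**Figure D2:**
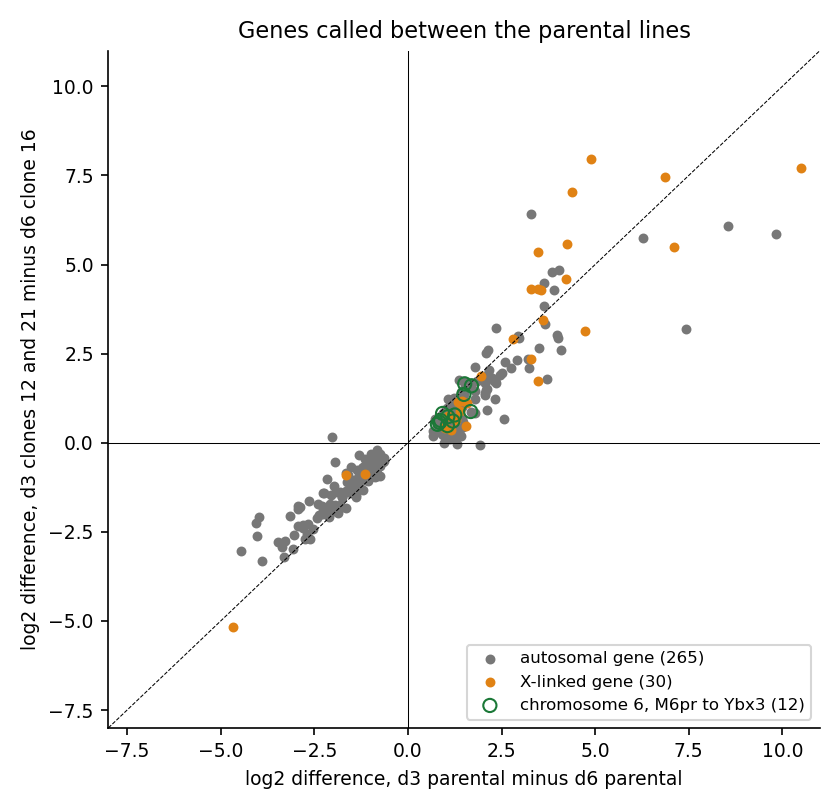
Log2 difference of the 295 genes called between the parental lines (horizontal axis, d3 minus d6) against the same difference in the recombined clones (vertical axis, d3 clones 12 and 21 minus d6 clone 16). Each point is a gene, orange for the X chromosome, and rings mark the 12 called genes of a stretch of chromosome 6. The dashed line marks equal differences, and 291 of the points lie in the lower left or upper right corner.

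The X chromosome held 30 called genes of 594 tested (5.05%, against 1.70% on the autosomes), and 27 of them were higher in d3. All 30 had the same sign in the clones, and 21 were called there. In 361 X-linked genes with enough counts, the median 129S1 share was 1.96% to 2.23% in the 4 libraries and 1.72% to 2.33% over all 24, while autosomal genes lay at 50.4% to 50.6%. In the median X-linked gene nearly all counts were thus assigned to CAST in every library, although the hybrid is labelled female, and 48 to 63 of the 361 genes had a share of 20% to 80%. Of the 30 called genes, 21 had a CAST share of at least 80% in the line where they were higher, and 5 a 129S1 share of at least 80%. The median X-linked gene was 0.11 and 0.099 higher in d3 within replicates 1 and 2, where the medians over all autosomes were -0.00852 and 0.00974. Single autosomes ran from -0.071 on chromosome 13 to 0.14 on chromosome 6, both within replicates 2. For replicate 1 minus replicate 2 the X median was 0.019 in d3 and 0.061 in d6.

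The promoters of 4 genes are shown because they stand for groups described next: an X-linked gene that rose in d3, the X-linked gene with the largest fall, a germ cell retrogene and a mesendoderm factor. They are the 250 bases before the RefSeq gene start (GRCm38.p6), 5′ to 3′, with CG dinucleotides, the sites of DNA methylation, in capitals.
1700013H16Rik: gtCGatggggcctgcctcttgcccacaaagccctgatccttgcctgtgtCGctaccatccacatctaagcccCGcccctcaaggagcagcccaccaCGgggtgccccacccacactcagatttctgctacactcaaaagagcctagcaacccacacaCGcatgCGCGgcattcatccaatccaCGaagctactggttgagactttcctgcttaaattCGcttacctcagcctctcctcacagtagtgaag
Mid1: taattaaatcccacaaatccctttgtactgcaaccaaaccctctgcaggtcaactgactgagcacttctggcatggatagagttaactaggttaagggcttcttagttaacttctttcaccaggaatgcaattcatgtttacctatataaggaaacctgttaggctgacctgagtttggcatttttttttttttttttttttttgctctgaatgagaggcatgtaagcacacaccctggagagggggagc
Rpl10l: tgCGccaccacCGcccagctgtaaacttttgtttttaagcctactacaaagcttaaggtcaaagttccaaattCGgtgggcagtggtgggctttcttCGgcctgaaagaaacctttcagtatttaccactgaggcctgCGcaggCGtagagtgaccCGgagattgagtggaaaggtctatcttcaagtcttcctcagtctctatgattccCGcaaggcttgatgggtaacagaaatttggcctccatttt
T: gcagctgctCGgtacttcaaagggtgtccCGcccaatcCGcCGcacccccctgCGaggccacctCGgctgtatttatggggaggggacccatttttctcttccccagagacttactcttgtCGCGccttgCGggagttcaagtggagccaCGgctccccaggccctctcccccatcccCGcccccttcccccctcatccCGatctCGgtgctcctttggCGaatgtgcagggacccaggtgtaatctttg
They lie at chrX:53757832-53758081, reverse strand; chrX:169684949-169685198, forward strand; chr12:66284402-66284651, reverse strand; and chr17:8434173-8434422, forward strand. The dinucleotide CG, which reads the same on both strands, occurs 9, 0, 8 and 14 times. Of 32851 windows of this length in the RefSeq table, 62.2%, 7.87%, 59.7% and 72.7% hold at most as many. Methylation was not measured in these libraries.

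Among X-linked genes higher in d3, Scml2 (ENSMUSG00000000037.17, chromosome X, 161117193 to 161258213), a Polycomb-group protein of the male germ line, had 37.2 and 30.3 CPM in the d3 libraries and 1.46 and 2.21 CPM in the d6 libraries. Its log2 difference was 4.23 (SE 0.379, adjusted p 3.96e-05) and in the clones 4.60 (adjusted p 1.35e-06), and both d3 libraries lay above all 8 other parental libraries, in which the 6 of the other lines reached 6.31 CPM. 1700013H16Rik (ENSMUSG00000054727.2, chromosome X, 53742901 to 53757831), whose promoter is shown above, had 7.85 and 19.9 CPM in the d3 libraries and 0.416 and 1.10 CPM in the d6 libraries. The groups did not overlap, and the difference was 4.25 (SE 0.763, adjusted p 0.00881), against 3.45 (adjusted p 0.0843) without d3 replicate 2. Gm8617 (ENSMUSG00000082170.1, chromosome X, 74789937 to 74792158), annotated as a processed pseudogene, had 15.9 and 24.8 CPM in the d3 libraries and 0 counts in the d6 libraries. Its level in d3 was at least 51.8-fold higher, taking a floor of 3 counts in each d6 library, and it was called in the clones as well. Fthl17d (ENSMUSG00000078206.1, chromosome X, 8985900 to 8986755), of a multicopy ferritin-like family, had 14.3 and 15.3 CPM in the d3 libraries and 2.19 and 0 CPM in the d6 libraries, a difference of 3.60 (SE 0.688, adjusted p 0.0141). Xlr3d-ps (ENSMUSG00000083847.1, chromosome X, 74696047 to 74704076), a pseudogene of the Xlr family, had 10.5 and 6.59 CPM in the d3 libraries and 0.624 and 0.945 CPM in the d6 libraries, a difference of 3.46 (SE 0.546, adjusted p 0.00328). Both belong to families of near-identical copies and Gm8617 is a pseudogene, so the counts of these 3 may include reads of their relatives. Without d3 replicate 2, 1700013H16Rik, Fthl17d and Dusp9 did not pass (adjusted p 0.0843, 0.066 and 0.121), and Scml2, Gm8617 and Xlr3d-ps did. Dusp9 (ENSMUSG00000031383.8, chromosome X, 73639419 to 73643514), a phosphatase that acts on ERK, had 19.2 and 17.8 CPM in the d3 libraries and 9.57 and 8.04 CPM in the d6 libraries, a difference of 1.07 (SE 0.250, adjusted p 0.0389) and of 0.95 (adjusted p 0.0732) with the length trend removed.

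Mid1 (ENSMUSG00000035299.16, chromosome X, 169685199 to 170005736), a microtubule-associated ubiquitin ligase, fell in d3. It had 4.05 and 1.65 CPM in the d3 libraries and 89.9 and 58.6 CPM in the d6 libraries, a log2 difference of -4.67 (SE 0.512, adjusted p 1.49e-04), and -5.18 (adjusted p 1.35e-06) in the clones. Both d3 libraries lay below all 8 other parental libraries, and the 6 libraries of the other lines had 4.76 to 88.8 CPM. None of its counts in the 4 libraries was assigned to 129S1. The other X-linked genes lower in d3 were Mcf2, with 46.5 and 41.2 CPM in the d3 libraries and 100.1 and 95.01 CPM in the d6 libraries, and Plxna3, with 1.90 and 2.37 CPM in the d3 libraries and 6.03 and 7.56 CPM in the d6 libraries. Neither was named by the rule, and both are given to complete the 3.

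Among germ cell genes, 19 of a list of 26 methylation-controlled genes were tested. Of these, 3 were called, all higher in d3, and 16 had a positive difference, with a median of 0.54. Over all 16253 genes 0.948% were called higher, 8176 were positive and the median was 0.0040. A pair of the 3 called genes, Tuba3a and Tuba3b, are not independent calls, since their reads cannot be told apart with certainty. Rpl10l (ENSMUSG00000060499.7, chromosome 12, 66283379 to 66284401), a retrogene copy of an X-linked ribosomal protein gene used in the male germ line, had 169.8 and 245 CPM in the d3 libraries and 43.1 and 56.9 CPM in the d6 libraries. The lines did not overlap, and the difference was 2.06 (SE 0.383, adjusted p 0.0118) between the parental lines and 1.66 (adjusted p 0.0173) in the clones. Tuba3a (ENSMUSG00000067702.5, chromosome 6, 125278274 to 125286042) and Tuba3b (ENSMUSG00000067338.6, chromosome 6, 145615757 to 145621479) encode testis alpha-tubulins of near-identical sequence, and Tuba3a lies in the stretch of chromosome 6 described below. Tuba3a had 157 and 206 CPM in the d3 libraries and 48.8 and 77.99 CPM in the d6 libraries, a difference of 1.52 (SE 0.266, adjusted p 0.00734). Tuba3b had 68.2 and 109.6 CPM in the d3 libraries and 33.8 and 41.8 CPM in the d6 libraries, a difference of 1.24 (SE 0.260, adjusted p 0.023). The germ cell genes Dazl, Hormad1 and Stk31 did not pass, with differences of 1.25, 1.38 and 1.15 (adjusted p 0.0541, 0.0545 and 0.0744), and Ddx4 lay at -1.44 (adjusted p 0.33). With the length trend removed 2 of the list were called, its median was 0.32, and Tuba3b did not pass (0.97, adjusted p 0.0525). Without d3 replicate 2 none was called and the median was 0.44, without d6 replicate 1 none and 0.34, and without d6 replicate 2 the median was 1.21 with 1 called. The median in the clones was 0.57.

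Other autosomal genes were higher in d3. Etv4 (ENSMUSG00000017724.14, chromosome 11, 101769742 to 101785371), an ETS factor that is a target of ERK signalling, had 31.01 and 38.6 CPM in the d3 libraries and 4.47 and 2.99 CPM in the d6 libraries. Its difference was 3.20 (SE 0.654, adjusted p 0.0211) and in the clones 2.36 (adjusted p 0.0448). T (ENSMUSG00000062327.10, chromosome 17, 8434423 to 8442496), the Brachyury factor of early mesoderm, had 47.8 and 37.05 CPM in the d3 libraries and 11.8 and 8.51 CPM in the d6 libraries. Its difference was 2.06 (SE 0.409, adjusted p 0.0173), and in the clones 1.40 (adjusted p 0.0595). AI662270 (ENSMUSG00000087107.8, chromosome 11, 83223576 to 83226604), which overlaps Gm11427 on the same strand, had 15.7 and 9.98 CPM in the d3 libraries and 0 counts in the d6 libraries and was at least 32.7-fold higher against the same floor. Rcsd1 (ENSMUSG00000040723.14, chromosome 1, 165646516 to 165709757), which binds actin capping protein, had 60.5 and 28.2 CPM in the d3 libraries and 8.12 and 2.99 CPM in the d6 libraries, a difference of 2.96 (SE 0.690, adjusted p 0.038). Sh3bp5 (ENSMUSG00000021892.14, chromosome 14, 31359880 to 31436078), an exchange factor for Rab11 GTPases, had 18.2 and 11.1 CPM in the d3 libraries and 3.12 and 0.473 CPM in the d6 libraries, a difference of 2.93 (SE 0.605, adjusted p 0.0217). Gm17210 (ENSMUSG00000090459.1, chromosome 14, 32292924 to 32294974), which lies in the interval of Parg on the other strand, had 9.67 and 9.06 CPM in the d3 libraries and 0.624 and 0.788 CPM in the d6 libraries, a difference of 3.72 (SE 0.643, adjusted p 0.0066). In all 6 of these genes both d3 libraries lay above all 8 other parental libraries. In the fit without d3 replicate 2, Etv4, T and Rcsd1 did not pass (adjusted p 0.102, 0.0553 and 0.0671), and AI662270, Sh3bp5 and Gm17210 did.

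**Figure D3:**
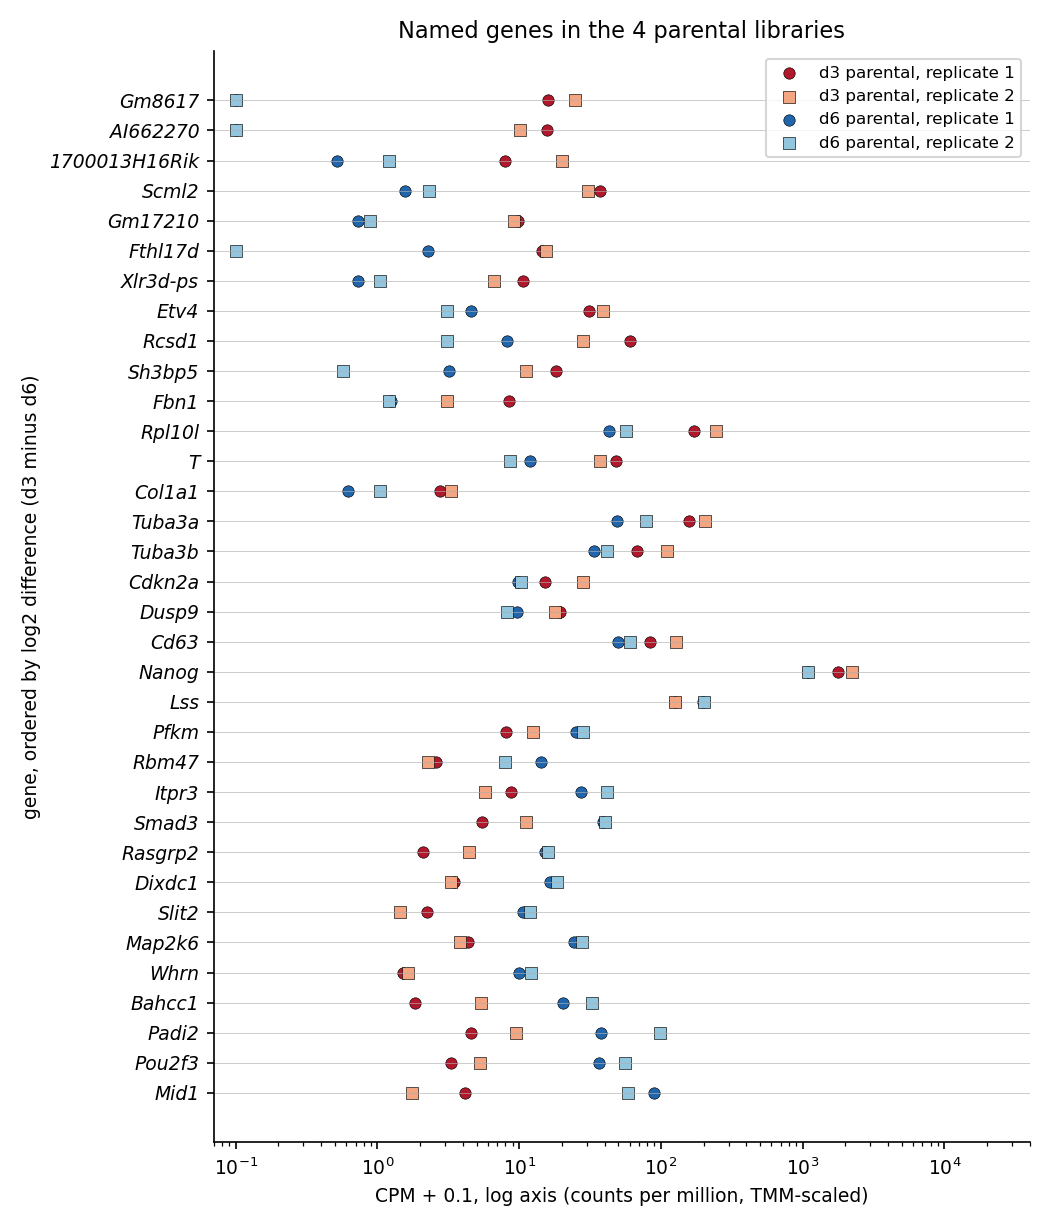
CPM plus 0.1 (horizontal log axis) of the named genes (vertical axis, ordered by their log2 difference) in the 4 parental libraries. Red and orange symbols are d3, blue symbols are d6, circles are replicate 1 and squares replicate 2. Points at 0.1 are libraries with 0 counts, and in no gene do the red and orange symbols overlap the range of the blue ones. For the genes named for the largest differences, the naming rule required this.

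Of the named falls, those of signalling proteins are given first, an order chosen for reading and not a finding. Smad3 (ENSMUSG00000032402.12, chromosome 9, 63646767 to 63757994), which transmits Nodal and TGF-beta signals to the nucleus, had 5.37 and 11.1 CPM in the d3 libraries and 39.1 and 40.02 CPM in the d6 libraries. Its difference was -2.27 (SE 0.356, adjusted p 0.00324), and -1.92 (adjusted p 0.00121) in the clones. Map2k6 (ENSMUSG00000020623.11, chromosome 11, 110399122 to 110525522), a kinase that activates p38, had 4.22 and 3.70 CPM in the d3 libraries and 24.2 and 27.4 CPM in the d6 libraries. Its difference was -2.70 (SE 0.251, adjusted p 3.96e-05), and -2.59 (adjusted p 0.00159) without d3 replicate 2. Slit2 (ENSMUSG00000031558.15, chromosome 5, 47983138 to 48307733), a secreted ligand of Robo receptors, had 2.15 and 1.34 CPM in the d3 libraries and 10.6 and 11.8 CPM in the d6 libraries, a difference of -2.66 (SE 0.512, adjusted p 0.0146). Dixdc1 (ENSMUSG00000032064.17, chromosome 9, 50662752 to 50739517), a DIX-domain regulator of Wnt signalling, had 3.39 and 3.19 CPM in the d3 libraries and 16.4 and 18.4 CPM in the d6 libraries, a difference of -2.40 (SE 0.399, adjusted p 0.00506). Rasgrp2 (ENSMUSG00000032946.16, chromosome 19, 6399340 to 6415216), an exchange factor for Rap, had 1.98 and 4.32 CPM in the d3 libraries and 15.1 and 15.8 CPM in the d6 libraries, a difference of -2.30 (SE 0.444, adjusted p 0.0148), and -1.95 (adjusted p 0.0568) with the length trend removed. Itpr3 (ENSMUSG00000042644.9, chromosome 17, 27057304 to 27122223), a calcium release channel, had 8.60 and 5.66 CPM in the d3 libraries and 27.3 and 41.3 CPM in the d6 libraries, a difference of -2.25 (SE 0.504, adjusted p 0.0315). In Smad3 and Map2k6 neither line stood outside the other parental libraries, and the d3 libraries were below all 8 others in Slit2, Dixdc1, Rasgrp2 and Itpr3. Slit2, Dixdc1 and Itpr3 did not pass once d3 replicate 2 was left out (adjusted p 0.153, 0.0734 and 0.245), and Smad3, Map2k6 and Rasgrp2 did.

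The remaining named falls were of other kinds. Pou2f3 (ENSMUSG00000032015.16, chromosome 9, 43123939 to 43210369), a POU factor of tuft cells and epidermis, had 3.22 and 5.15 CPM in the d3 libraries and 36.7 and 56.1 CPM in the d6 libraries. Its difference was -3.47 (SE 0.524, adjusted p 0.00296) and in the clones -2.78 (adjusted p 9.36e-04). Padi2 (ENSMUSG00000028927.6, chromosome 4, 140906344 to 140952586), an enzyme that converts protein arginine to citrulline, had 4.46 and 9.47 CPM in the d3 libraries and 37.9 and 98.5 CPM in the d6 libraries, a difference of -3.30 (SE 0.676, adjusted p 0.0214). Bahcc1 (ENSMUSG00000039741.15, chromosome 11, 120232947 to 120292296), a chromatin protein with a BAH domain, had 1.74 and 5.25 CPM in the d3 libraries and 20.3 and 32.6 CPM in the d6 libraries, a difference of -2.93 (SE 0.651, adjusted p 0.0301), and -2.60 (adjusted p 0.0708) with the length trend removed. Whrn (ENSMUSG00000039137.18, chromosome 4, 63414910 to 63495991), a scaffold protein of sensory hair cells, had 1.41 and 1.54 CPM in the d3 libraries and 9.88 and 11.97 CPM in the d6 libraries, a difference of -2.88 (SE 0.645, adjusted p 0.0316). Rbm47 (ENSMUSG00000070780.11, chromosome 5, 66016549 to 66173118), an RNA-binding protein, had 2.48 and 2.16 CPM in the d3 libraries and 14.05 and 7.88 CPM in the d6 libraries, a difference of -2.24 (SE 0.360, adjusted p 0.00372). In all 5 genes both d3 libraries lay below all 8 other parental libraries. With d3 replicate 2 left out, Padi2, Bahcc1, Whrn and Rbm47 did not pass (adjusted p 0.0991, 0.0734, 0.19 and 0.0662), and Pou2f3 did. The intervals of Mid1, Rcsd1, Sh3bp5, Padi2, Bahcc1, Slit2, Rasgrp2, Itpr3 and Rbm47 overlap other annotated genes, and whether the counting used the strand was not given in the sources used here.

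In the pluripotency network 1 gene was called, where 0.948% of all genes tested were called higher. Of 20 core and naive genes 19 were tested, and Nanog (ENSMUSG00000012396.12, chromosome 6, 122707489 to 122714633) was the only one called. It had 1775 and 2217 CPM in the d3 libraries and 1090 and 1088 CPM in the d6 libraries, a difference of 0.87 (SE 0.185, adjusted p 0.0234), and 0.68 (adjusted p 0.0407) with the length trend removed. Nanog lies in a stretch of chromosome 6 described below, and its pseudogene Nanog-ps1 on the X chromosome was also called, at 1.44 (SE 0.198, adjusted p 0.00149), so reads of the pair may be mixed. In the clones Nanog did not pass, at 0.62 (adjusted p 0.0624), and neither did it without d3 replicate 2, at 0.72 (adjusted p 0.173). The list's median was 0.0861, with Pou5f1 at 0.19, Sox2 at 0.0861 and Fgf4 at -0.90 (adjusted p 0.761, 0.873 and 0.113). Of 15 formative and primed genes tested, Etv4 was called, and 10 had a positive difference (median 0.36). Dnmt3l, a cofactor of de novo DNA methylation, did not pass at 3.06 (adjusted p 0.0599), with 128 and 73.6 CPM in the d3 libraries and 17.2 and 6.62 CPM in the d6 libraries. Etv5, a relative of Etv4, did not pass at 0.74 (adjusted p 0.0644).

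In the other signalling lists single genes were called, where 0.948% of all genes were called higher. Of 19 Wnt and mesendoderm genes tested, T was called and 10 were positive (median 0.0738). Of 15 ERK feedback genes, Etv4 was called and 10 were positive (median 0.0985). The sign of that median rested on 1 library. It was -0.39 with 5 positive without d3 replicate 1, 0.39 without d3 replicate 2 and 0.62 without d6 replicate 1, and Etv4 passed in 1 of the 4 fits that leave out a library. The Wnt list's median likewise became -0.17 without d3 replicate 1, and T passed in that fit alone. Of 15 LIF and BMP targets, Dusp9 was called and 5 were positive (median -0.16). No member was called in total counts among 14 DNA methylation writers and erasers, 19 nuclear lamina and inner membrane genes and 22 p53 targets. The same held for 38 imprinted genes and 26 genes of the ATF4 stress response. The medians of these 5 lists ran from 0.00783 to 0.27. At an unadjusted p under 0.05 these 5 lists held 3, 3, 3, 7 and 0 genes. Some of these medians turned with single libraries. That of the ATF4 list was -1.04 with 2 of 26 positive without d3 replicate 2, -0.55 without d6 replicate 1, 0.51 without d3 replicate 1 and 0.62 with 23 positive without d6 replicate 2. Without d3 replicate 1 the imprinted median was -0.14 with 3 called lower, 3 DNA methylation genes and 1 lamina gene were called lower, and the lamina median was -0.26. The DNA methylation median was -0.060 without d6 replicate 2. Cdkn2a (ENSMUSG00000044303.6, chromosome 4, 89274471 to 89294653), which encodes cell cycle inhibitors, was the only one of 25 cell cycle and histone genes called. In Cdkn2a both d6 libraries lay below all 8 other parental libraries, and the 6 of the other lines had 15.1 to 30.1 CPM. The d3 libraries did not stand outside. It had 15.05 and 27.9 CPM in the d3 libraries and 9.68 and 10.2 CPM in the d6 libraries, a difference of 1.11 (SE 0.258, adjusted p 0.038), with 0.23 (adjusted p 0.848) in the clones and 0.79 (adjusted p 0.121) with the length trend removed. Without d3 replicate 2 it was 0.61 (adjusted p 0.325).

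Of 34 sterol and fatty acid genes, 28 had a negative difference (median -0.27) and 2 were called, both lower in d3. Over all 16253 genes tested, 0.868% were called lower and 0.948% higher, and 8076 had a negative difference. Lss (ENSMUSG00000033105.12, chromosome 10, 76531588 to 76557138), which makes lanosterol, had 126 and 125 CPM in the d3 libraries and 198 and 203 CPM in the d6 libraries. The replicates of each line lay close together and the difference was -0.68 (SE 0.145, adjusted p 0.0258), but -0.41 (adjusted p 0.206) with the length trend removed. The list's median was -0.27 with the length trend removed and -0.21 in the clones. Without d3 replicate 2 no member was called, and likewise without d6 replicate 1 or d6 replicate 2. Of 32 glycolysis and hypoxia genes, Pfkm (ENSMUSG00000033065.14, chromosome 15, 98092589 to 98132451), the muscle form of phosphofructokinase, was called, with 7.94 and 12.3 CPM in the d3 libraries and 25.1 and 28.2 CPM in the d6 libraries, a difference of -1.40 (SE 0.305, adjusted p 0.0282) and -1.47 (adjusted p 0.00415) in the clones. Pfkm did not pass without d3 replicate 2 (adjusted p 0.066), and the list's median of -0.16 became 0.15 without d3 replicate 1 and 0.14 without d6 replicate 2. All 11 mitochondrially encoded genes tested were lower in d3 (median -0.76) and none was called, with 6 at an unadjusted p under 0.05. Their summed level was 61542 and 33536 CPM in d3 and 87876 and 78881 CPM in d6, and their median was 0.50 in the clones, of the opposite sign. Without d3 replicate 1 it was -1.47 with 8 called, and without d3 replicate 2 it was -0.27. Of 25 lysosomal genes Cd63 (ENSMUSG00000025351.14, chromosome 10, 128900989 to 128912822), a tetraspanin, was called. It had 83.2 and 128 CPM in the d3 libraries and 49.3 and 60.8 CPM in the d6 libraries. Both d6 libraries lay below all 8 other parental libraries, and the 6 of the other lines had 62.2 to 110 CPM. The d3 libraries did not stand outside. Cd63 had a difference of 0.94 (SE 0.233, adjusted p 0.048), and 0.55 (adjusted p 0.251) in the clones. Its call was lost with the length trend removed, at 0.88 (adjusted p 0.0648), and without d3 replicate 2, at 0.61 (adjusted p 0.326).

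Among marker lists of other cells, 2 of 6 fibroblast genes tested were called, both higher in d3, where 0.948% of all genes were called higher. The list did not move one way: 3 of the 6 were negative, among them Pdgfrb at -1.80 (adjusted p 0.0526), which was the only negative one at an unadjusted p under 0.05, and 1 member was called lower without d3 replicate 1. Col1a1 (ENSMUSG00000001506.10, chromosome 11, 94936224 to 94953042), a fibrillar collagen chain, had 2.65 and 3.19 CPM in the d3 libraries and 0.520 and 0.945 CPM in the d6 libraries, a difference of 2.02 (SE 0.497, adjusted p 0.0478). Fbn1 (ENSMUSG00000027204.13, chromosome 2, 125300594 to 125507993), a microfibril protein, had 8.43 and 2.98 CPM in the d3 libraries and 1.14 and 1.10 CPM in the d6 libraries, a difference of 2.34 (SE 0.560, adjusted p 0.0432) and 1.22 (adjusted p 0.257) in the clones. Without d3 replicate 2 Fbn1 passed and Col1a1 did not (adjusted p 0.19), and without either d6 library neither passed. Of the 15 genes of that list, 5 were at 0 in all 4 libraries, and its summed level, given above, overlapped between the lines. No member was called among 13 primitive endoderm genes (median -0.39), 9 trophectoderm genes (-0.00458) and 8 neural genes (0.0466), with 5, 1 and 1 at an unadjusted p under 0.05. Only 2 of the genes of the early cleavage-like state passed the filter, both with a positive difference and neither called. Both were at an unadjusted p under 0.05, and their median was 2.67, against 1.05 in the clones. The summed level of 19 genes of this state was 25.8 and 7.00 CPM in the d3 libraries and 3.43 and 2.68 CPM in the d6 libraries. Between 12 and 16 of them were at 0 in a library.

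Allelic balance, as 129S1 over CAST counts, could be tested for 10795 genes. It differed between the lines in 63 (0.584%), of which 46 had a higher 129S1 share in d3 (0.426%) and 17 a lower one (0.157%). In all 63 the shares of the lines did not overlap, as in 38.6% of all genes. All 63 had the same sign in the clones and 53 were called there. Clone 21 of d3 had a median 129S1 share of 0.39% and 0.59% on chromosome 14, and that chromosome had 330 of the 475 genes called in the clone comparison (4.4%, with 0.862% higher and 3.54% lower in d3). Against clone 12 alone (67 called, 0.621%, with 0.445% higher and 0.176% lower in d3) 62 of the 63 had the same sign and 46 were called. Of the 63 genes, 14 were also called in total counts. Without d3 replicate 1 the ratio was called in 218 genes, and without one of the other 3 libraries in 45 to 52. Of 16 genes named for their ratio, 4 lost the call without d3 replicate 2, 7 without d6 replicate 1 and 2 without d6 replicate 2.

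Of the 63 genes, 23 lay in one stretch of chromosome 6, from M6pr to Ybx3 (122308720 to 131388476, 9.08 Mb), whose limits were set after the values were seen. All 23 had a higher 129S1 share in d3. Of the 60 genes tested there, 57 had a positive difference, and the 3 negative ones (Gm8719, Pzp and Gm44078) were not called. The median 129S1 share of 45 genes with shares of 20% to 80% in all 4 libraries was 63.9% and 64.8% in the d3 parental libraries and 49.4% and 50% in d6. It was 47.5% to 53.1% in the 6 libraries of the other parental lines, 65.0% to 65.6% in the clones of d3 and 50.8% and 51.1% in d6 clone 16. The d3 libraries and those of its clones were thus the high ones among these 16. The median log2 ratio difference was 0.93 ± 0.023 (SD, n = 2 replicate pairs), against 0.030 and -0.034 between replicates of a line. In the same 45 genes the median difference was 0.99 ± 0.14 for the 129S1 counts and -0.035 ± 0.056 for the CAST counts. For the sum of both alleles it was 0.66 ± 0.19, over another set, the 81 genes there that averaged 20 counts or more. Of 104 genes tested for total counts 12 were called (11.5%), all higher in d3, and without d3 replicate 2 the median of the sum was 0.47. DNA copy number was not measured.

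The neighbouring genes on either side did not share the shift, which was largely fixed by setting the limits after the values were seen. The 10 tested genes before M6pr had a median ratio difference of 0.017 and the 10 after Ybx3 of -0.059, with none called. Elsewhere on chromosome 6 the ratio was called in Tra2a (-0.92) and Tatdn2 (1.55), which both lie before the stretch and differed in opposite directions. When the genome was cut into windows of 10 Mb, 251 had 5 or more genes to read, and the window of this stretch lay at 0.81, and the next highest at 0.26.

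Of the genes of the stretch with a called ratio, 5 are described. Slc2a3 (ENSMUSG00000003153.10, chromosome 6, 122727809 to 122801640), a neuronal-type glucose transporter, had a 129S1 share of 63.03% and 60.7% in the d3 libraries and 40.5% and 39.7% in the d6 libraries, a log2 ratio difference of 1.28 (SE 0.117, adjusted p 2.08e-06). Phc1 (ENSMUSG00000040669.14, chromosome 6, 122317731 to 122340561), a Polycomb subunit, had 63.9% and 63.01% in the d3 libraries and 49.4% and 48.9% in the d6 libraries, a ratio difference of 0.85 (SE 0.105, adjusted p 9.97e-05). Gdf3 (ENSMUSG00000030117.5, chromosome 6, 122605403 to 122610087), a Nodal-related ligand, had 55.9% and 55.2% in the d3 libraries and 35.7% and 39.1% in the d6 libraries, a ratio difference of 1.08 (SE 0.112, adjusted p 1.21e-05). In each of these 3 genes both d3 libraries lay above all other parental libraries. Chd4 (ENSMUSG00000063870.12, chromosome 6, 125095981 to 125130591), the remodelling ATPase of the NuRD complex, had 79.8% and 75.5% in the d3 libraries and 66.2% and 66.2% in the d6 libraries, a ratio difference of 0.84 (SE 0.119, adjusted p 4.16e-04). Foxm1 (ENSMUSG00000001517.14, chromosome 6, 128362967 to 128376146), a cell cycle transcription factor, had 70.5% and 71.4% in the d3 libraries and 53.9% and 54.5% in the d6 libraries, a ratio difference of 1.05 (SE 0.121, adjusted p 4.87e-05). These 5 genes were chosen from the 23 after their values were seen, for their known roles. Nanog was not called for its ratio (0.68, adjusted p 0.0983), nor was Gapdh (0.091, adjusted p 0.963).

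The rule named a pair of genes of the stretch as called both in total counts and in ratio. Mrpl51 (ENSMUSG00000030335.6, chromosome 6, 125191801 to 125196269), a mitochondrial ribosomal protein, had 113 and 159 CPM in the d3 libraries and 45.5 and 39.2 CPM in the d6 libraries, a total difference of 1.68 (SE 0.241, adjusted p 0.00189). Ybx3 (ENSMUSG00000030189.15, chromosome 6, 131364855 to 131388476), a cold-shock-domain protein at the end of the stretch, had 127 and 188 CPM in the d3 libraries and 71.6 and 65.2 CPM in the d6 libraries, a total difference of 1.20 (SE 0.182, adjusted p 0.00296). Their 129S1 counts changed by 2.03 and 1.43, and their CAST counts by 0.64 and 0.51. In both genes the ratio of the d3 libraries lay above all 8 other parental libraries.

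**Figure D4:**
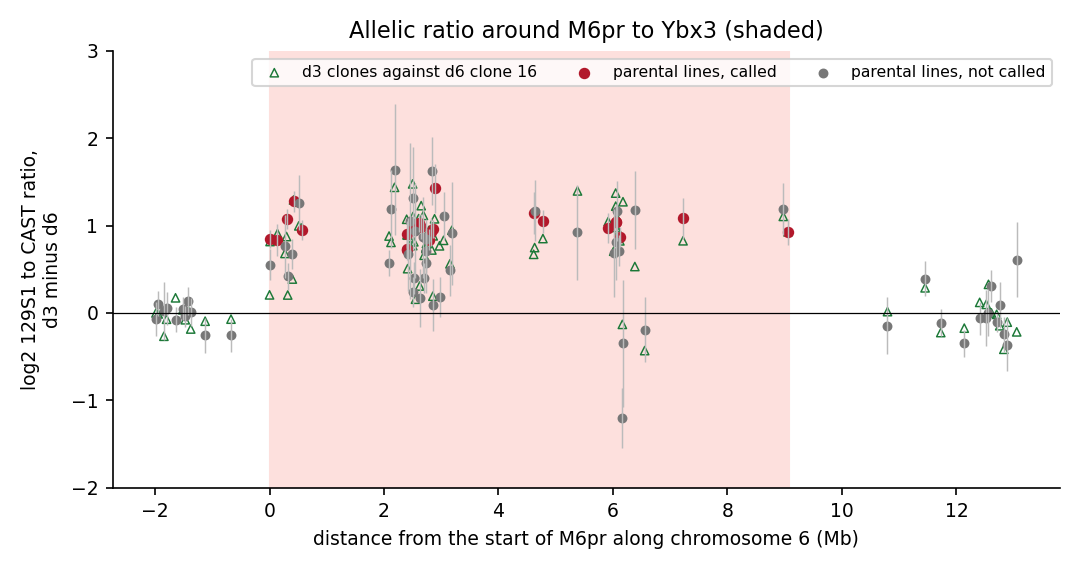
Log2 difference of the 129S1 to CAST ratio, d3 minus d6 (vertical axis), of tested genes in the stretch and beside it, by distance in Mb from the start of M6pr (horizontal axis). Points are the parental lines, red where called, bars are the SE, and triangles are the d3 clones against d6 clone 16. Inside the shaded stretch 57 of 60 parental points lie above 0, around a median of 0.90, and none of the points beside it is called.

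The other 40 ratio calls were spread over the genome, 23 with a higher and 17 with a lower 129S1 share in d3. Smarcc1 (ENSMUSG00000032481.17, chromosome 9, 110117708 to 110240178), a core subunit of the BAF remodelling complex, had a 129S1 share of 45.2% and 46.7% in the d3 libraries and 13.3% and 15.3% in the d6 libraries. The ratio difference was 2.36 (SE 0.125, adjusted p 6.99e-10) and in the clones 2.43 (adjusted p 5.42e-13). It came from the 129S1 copy: the log2 change was 2.34 for the 129S1 counts and -0.01 for the CAST counts, and the total did not pass at 0.65 (adjusted p 0.141). The 6 libraries of the other parental lines ran from 13.1% to 46.3%, so neither line stood alone. Mrpl16 (ENSMUSG00000024683.6, chromosome 19, 11770391 to 11774960), a mitochondrial ribosomal protein, had 78.9% and 81.6% in the d3 libraries and 36.9% and 41.2% in the d6 libraries, a ratio difference of 2.70 (SE 0.297, adjusted p 2.75e-05), with 0.84 for the 129S1 counts and -1.80 for the CAST counts. In Mrpl16 the counts of the 2 alleles had differences of opposite sign. Epb41l3 (ENSMUSG00000024044.19, chromosome 17, 69075683 to 69289989), a membrane skeleton protein, had 48.7% and 47.4% in the d3 libraries and 14.3% and 17.6% in the d6 libraries, a ratio difference of 2.32 (SE 0.342, adjusted p 6.46e-04), with -0.39 for the 129S1 counts and -2.66 for the CAST counts.

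Gm32885 (ENSMUSG00000116295.1, chromosome 15, 97157029 to 97167244) had a 129S1 share of 23.7% and 25.00% in the d3 libraries and 4.75% and 5.38% in the d6 libraries, a ratio difference of 2.60 (SE 0.219, adjusted p 8.85e-07), and 2.76 (adjusted p 2.04e-10) in the clones. Tktl2 (ENSMUSG00000025519.5, chromosome 8, 66511756 to 66518335), a transketolase-like gene, had 27.98% and 35.6% in the d3 libraries and 1.56% and 0% in the d6 libraries. Its ratio difference was 4.93 (SE 0.737, adjusted p 9.09e-04), with 1 and 0 129S1 counts in the d6 libraries, both under the floor of 3, so that the fitted value is no bound. Among genes with a lower 129S1 share in d3, Pinx1 (ENSMUSG00000021958.5, chromosome 14, 63860364 to 63919859), a telomerase inhibitor, had 70.3% and 69.03% in the d3 libraries and 93.1% and 97.8% in the d6 libraries. Its ratio difference was -2.98 (SE 0.524, adjusted p 0.00467), and -1.85 (adjusted p 0.0103) in clone 12 alone. The difference was 0.58 for the 129S1 counts and 3.66 for the CAST counts. Pinx1 had only 5 and 1 CAST counts in the d6 libraries, the latter under the floor of 3, so that the 3.66 is imprecise. Grpel1 (ENSMUSG00000029198.3, chromosome 5, 36464998 to 36474080), a cochaperone of mitochondrial import, had 29.8% and 14.7% in the d3 libraries and 62.3% and 53.6% in the d6 libraries, a ratio difference of -2.36 (SE 0.311, adjusted p 1.97e-04). The actin-binding protein gene Ablim1 (ENSMUSG00000025085.16, chromosome 19, 57032733 to 57314919) had 13.9% and 8.18% in the d3 libraries and 32.5% and 24.3% in the d6 libraries, a ratio difference of -1.63 (SE 0.361, adjusted p 0.0395). Trpm1 (ENSMUSG00000030523.18, chromosome 7, 64153835 to 64269775), a cation channel, had 16.1% and 14.8% in the d3 libraries and 36.2% and 30.3% in the d6 libraries, a ratio difference of -1.45 (SE 0.250, adjusted p 0.00343). Vps26c (ENSMUSG00000022898.13, chromosome 16, 94497783 to 94526830), a subunit of an endosomal recycling complex, had 31.8% and 29.4% in the d3 libraries and 52.8% and 47.9% in the d6 libraries, a ratio difference of -1.21 (SE 0.161, adjusted p 2.03e-04).

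Both readouts were called in 14 genes. The noncoding RNA Platr14 (ENSMUSG00000086454.7, chromosome 2, 104559163 to 104571429) had 92.7 and 88.5 CPM in the d3 libraries and 37.7 and 32.5 CPM in the d6 libraries, a total difference of 1.37 (SE 0.249, adjusted p 0.00992), and 1.13 (adjusted p 0.0647) with the length trend removed. Its 129S1 shares were 46.9% and 48.5% in the d3 libraries and 70.2% and 80.6% in the d6 libraries. Its 129S1 counts changed by 0.71 and its CAST counts by 2.48 (log2). Commd4 (ENSMUSG00000032299.10, chromosome 9, 57155035 to 57158331), a COMM-domain protein, had 41.4 and 46.9 CPM in the d3 libraries and 21.02 and 17.5 CPM in the d6 libraries, a total difference of 1.19 (SE 0.198, adjusted p 0.00506) and a ratio difference of 1.19 (SE 0.208, adjusted p 0.00403). Gm18722 (ENSMUSG00000116348.1, chromosome 16, 9104803 to 9107770) had 32.2 and 32.9 CPM in the d3 libraries and 14.5 and 11.03 CPM in the d6 libraries, a total difference of 1.35 (SE 0.213, adjusted p 0.00328) and a ratio difference of 1.74 (SE 0.268, adjusted p 9.97e-04). Rpl10l, called in both, had positive differences on both copies, 1.37 in 129S1 and 2.50 in CAST counts, and its 129S1 share was 30.9% and 32.1% in the d3 libraries and 53.4% and 47.1% in the d6 libraries. Nup88, Dhx33 and Mis12, neighbours on chromosome 11 named after their values were seen, shared a ratio difference of 0.98, 0.97 and 1.06 without a call in total counts.

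**Figure D5:**
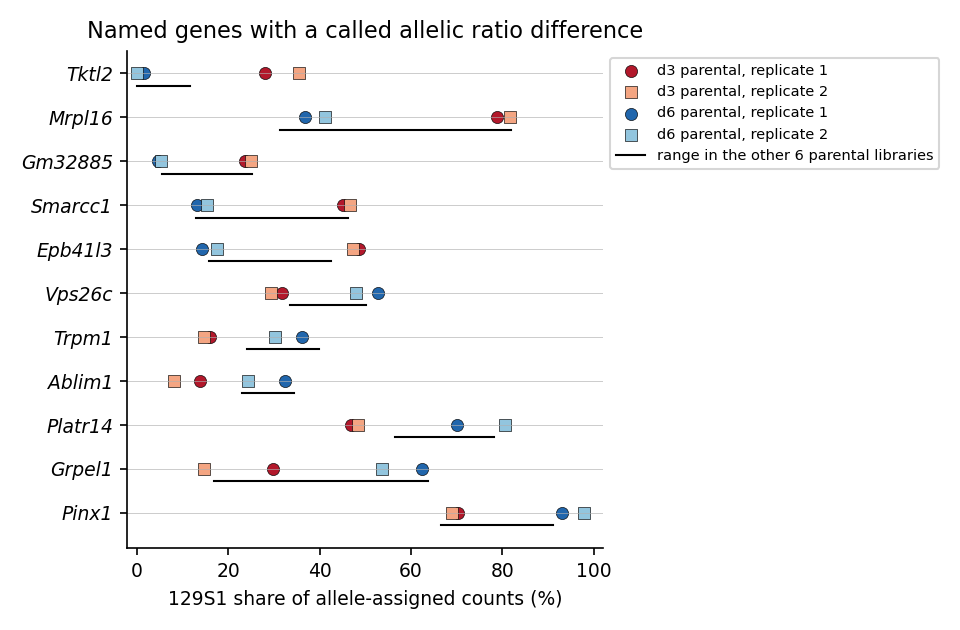
Share of allele-assigned counts from 129S1 (horizontal axis, percent) of named genes with a called ratio difference (vertical axis) in the 4 parental libraries. Red and orange symbols are d3, blue symbols are d6, and black lines span the 6 libraries of the other parental lines. In every gene the d3 and d6 symbols are apart, and in Smarcc1 and Mrpl16 the black line reaches from one to the other.

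By whole chromosome, the median log2 difference in total counts lay between -0.071 and 0.14 in either replicate pair on every autosome and X. Chromosome 6 was at 0.088 and 0.14 and X at 0.11 and 0.099, and on chromosome 6 the mean fell to 0.053 without d6 replicate 2. Median ratio differences per autosome lay between -0.080 and 0.042, and no autosome showed a shift over its whole length like that of the stretch on chromosome 6.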

How the data were processed

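Poly(A) RNA-seq was done on 24 libraries, 2 for each of 12 groups of hybrid stem cells. The authors deposited raw counts per gene and allele (129S1 and CAST) for 48985 Ensembl identifiers. STAR, SAMtools and the build mm10 are named in the submitters' processing notes, and the counting program, annotation and strand setting were not given in the sources used here. Gene positions come from GENCODE M21 (GRCm38), which matched 48301 identifiers with their version and 48838 without it, and promoters from RefSeq (GRCm38.p6), which held 38 of the named genes. No entry was found there for Etv4, Pou2f3 and AI662270.

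The columns of both alleles were summed. Summed counts were tested with edgeR 4.0.16 (R 4.3.3, quasi-likelihood, TMM scaling, filterByExpr) in one fit of all 24 libraries, in which 16253 genes passed the filter. A gene is called at a Benjamini-Hochberg adjusted p under 0.05 over all genes tested. The SE is the size of the log2 difference divided by the square root of the test's F value. The 129S1 to CAST ratio was fitted in the same way with library and allele terms, for the 10795 genes whose alleles each averaged 10 counts or more. All tests are two-sided. The spread between replicates, as a coefficient of biological variation, was 0.246 for summed counts and 0.0838 for the ratio. The spread behind each p-value was estimated from the replicates of all 24 libraries, not from the 4 compared alone. With 2 libraries a line, those 4 cannot separate line from handling. On data simulated for the parental comparison of 16253 genes, 30% of 2-fold and 94% of 4-fold differences were called, and for its ratio in 10795 genes 64% and 98%. The changed genes were drawn only from those averaging 50 counts or more. For the ratio the simulated spread was set by hand, below that of the data, and the length trend of d3 replicate 2 was not simulated. The rates may therefore be too high for these data.

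Named genes are the 12 largest called differences each way, for genes averaging 50 counts or more without overlap between the lines in CPM. The 6 largest ratio differences each way, where the alleles average 20 counts or more, are also named. So are called list members and the 6 genes called in both total counts and ratio with the smallest p. Predicted genes are named only among the 5 largest. Of the genes that meet this rule, 2 are not reported here. Members and lists were chosen with earlier results of these data known. Alternatives were DESeq2 1.42.0, other filters, other sets of libraries, each allele alone, a replicate block, leaving out each library and, chosen after seeing the data, a removed length trend. Figures were drawn with matplotlib 3.10.9.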

Additional observations from a re-analysis of the deposited data

How the results depend on the processing

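The count of 295 genes called in total counts differed between settings. It was 46 in a fit of the 10 libraries of d3 and d6, 8 in the 4 libraries alone, 110 from the CAST columns alone, 691 with DESeq2, 1072 with no filter on low counts and 192 with the exon length trend removed. Leaving out 1 library gave 34 (without d6 replicate 2) to 1561 (without d3 replicate 1), with 62 without d3 replicate 2 and 56 without d6 replicate 1. Of 41 named genes, 38 could be fitted from the 129S1 columns alone, 39 from the CAST columns alone and 36 under a stricter filter, and none of those fitted reversed. The count of 63 ratio calls became 218 without d3 replicate 1, and leaving out 1 library gave 45 to 218. In the clones, the count of 304 became 74 in the 10 libraries, 661 and 183 from the 129S1 and CAST columns alone, 491 with DESeq2, 682 with no filter, 173 with a stricter filter, and 131 and 129 for clone 12 and clone 21 alone, and leaving out 1 library gave 67 to 218. The count of 0 for the difference between both comparisons became 2 with DESeq2, 1 with the length trend removed and 28 with no filter, and leaving out 1 library gave 0 to 129. The chromosome 6 median of 0.11 ran from 0.053 to 0.13 on leaving out 1 library, the X median of 0.10 from 0.070 to 0.14 (0.089 with a stricter filter), and the mitochondrial median of -0.92 from -1.45 to -0.32. The cause of these changes was not tested.

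The replicate numbers do not come with a statement that they pair the samples, and with 2 pairs the differences between replicates 2 and 1 of the lines correlated at 0.386 over 16253 genes. With a replicate block the total count of calls was 968 over 24 libraries, 1397 over 10 and 725 over 4, the ratio count 98, the clone count 719 and 971, and that of the difference between both comparisons 2 over 24 and 2 over 10. Over 24 libraries it also brought past the threshold the total counts of 3 genes named for their ratio: Smarcc1 (0.65, adjusted p 0.0324), Tktl2 (1.30, adjusted p 0.0398) and Pinx1 (1.05, adjusted p 0.0367).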
